A study of Mus musculus with 2 samples.

Results

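The 9 genes described here code for 6 matrix metalloproteinases, Mmp2, Mmp3, Mmp10, Mmp11, Mmp13 and Mmp14, and for 3 tissue inhibitors of metalloproteinases, Timp1, Timp2 and Timp3. They were taken by name from the 17408 genes of the table, and all 9 were found. The cells were mouse embryonic fibroblasts (MEFs) with STEMCCA, a construct from which doxycycline induces Pou5f1, Sox2, Klf4 and Myc. They were grown with doxycycline, ascorbic acid, LIF and fetal bovine serum, and were taken unsorted on day 16 on the way to induced pluripotent stem cells (iPSCs). Droplet 3' single-cell RNA-seq, which counts RNA molecules by their unique molecular identifiers (UMIs), gave 2 libraries of 1 group, replicate 1 and replicate 2. By the study's account, 2 independent STEMCCA mouse systems were used for day 16, and the labels do not tie a library to a system. A difference of system and a technical difference between the libraries cannot be told apart. The p-values below rest on how far class differences varied between these libraries, whatever the source. Most of that spread was borrowed from other genes. No untreated cells were profiled, and all cells had received the same factors.

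Matrix metalloproteinases are zinc enzymes that cut proteins of the extracellular matrix. Most are secreted as inactive proenzymes, whereas Mmp14 sits in the cell membrane. The Timp proteins bind the active site of these enzymes and block it, but Timp2 also takes part in activation, since Mmp14 and Timp2 together hold the proenzyme of Mmp2 at the cell surface. Fibroblasts and other mesenchymal cells are a main source of these proteins. Reprogramming replaces the fibroblast programme, its matrix genes included, with that of a pluripotent cell.

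Replicate 1 held 3109 cells with a median of 15625 UMIs, and replicate 2 held 3914 cells with a median of 14292 UMIs. The same barcode occurred in both libraries in 12 cases. Levels are given as the mean over cells of UMIs per 10000 UMIs of the cell. Cells were clustered without the 9 genes and without 3 lists of related proteases and inhibitors, which gave 17 clusters, of which 12 had at least 30 cells in each library and are called states. Cluster 6 (146 and 391 cells) was pluripotent-like: 10 of 10 pluripotency markers were raised at least 2-fold and Dppa5a and Utf1 led it. Cluster 10 (240 and 149 cells) had 9 of 11 fibroblast markers raised and so met the marker rule for fibroblasts, but only 1 of them was among its 10 leading genes. These began with Spp1, Col10a1, Penk and Eln and also held Comp. Spp1, Col10a1 and Comp are known from bone and cartilage, for which no marker list was set, so the cluster is called by its number. Clusters 0 and 1 were mitotic. Cluster 11, led by Mylk, Sprr2k and Thbs1, had 7 of 7 smooth muscle and 8 of 11 fibroblast markers raised and stayed unnamed. The states named below by their leading genes are cluster 2 (Rgcc, Rarres2 and Wisp2), cluster 3 (Tac2 and Dmrtc2), cluster 4 (Perp and Krt19), cluster 5 (Nxpe2 and Aldoc), cluster 7 (Pcp4, Cst6, Cdo1 and Smoc2), cluster 8 (Isg15, Dcn and Gpx3) and cluster 9 (Dkk2 and Sbspon).

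Mmp3, Mmp10 and Mmp13 are neighbours on mouse chromosome 9 (GRCm38, the assembly that mm10 denotes), on the plus strand. Mmp13 lies at 7272514 to 7283331, Mmp3 at 7445822 to 7455975 and Mmp10 at 7502352 to 7510240, so that the 3 genes fall within 238 kb. From Mmp13 on, up to the end of Mmp7 at 7699585, the GENCODE M21 annotation lists 10 Mmp genes, of which 4 were in the table. Besides the 3 members, this was Mmp12, which had 0 and 13 UMIs in replicate 1 and replicate 2. The remaining genes lie apart. Mmp2 is on chromosome 8, Mmp14 on chromosome 14, Mmp11 and Timp3 on chromosome 10, Timp2 on chromosome 11 and Timp1 on the X chromosome.

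The promoters of these 3 neighbours are shown because 2 of the genes moved together over the states and the third was close to undetected. RefSeq (GRCm38.p6) gave the bases before the annotated start of 8 of the 9 genes, all but Mmp2. The 250 bases before the start are chr9:7445572-7445821 for Mmp3, chr9:7502092-7502341 for Mmp10 and chr9:7272264-7272513 for Mmp13, on the plus strand. Capitals mark 2 motifs searched on both strands, the AP-1 motif TGAGTCA (its reverse complement is TGACTCA) and the TATA box motif TATAAA.
Mmp3: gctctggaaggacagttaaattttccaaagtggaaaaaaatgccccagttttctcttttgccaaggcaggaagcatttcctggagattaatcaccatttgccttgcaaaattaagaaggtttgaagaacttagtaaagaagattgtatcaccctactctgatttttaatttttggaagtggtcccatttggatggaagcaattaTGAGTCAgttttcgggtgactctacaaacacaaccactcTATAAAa
Mmp10: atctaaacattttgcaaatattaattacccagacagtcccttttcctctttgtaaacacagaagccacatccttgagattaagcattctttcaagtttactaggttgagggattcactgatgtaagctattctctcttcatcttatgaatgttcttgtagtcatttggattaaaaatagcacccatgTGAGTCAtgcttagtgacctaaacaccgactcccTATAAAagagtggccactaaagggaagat
Mmp13: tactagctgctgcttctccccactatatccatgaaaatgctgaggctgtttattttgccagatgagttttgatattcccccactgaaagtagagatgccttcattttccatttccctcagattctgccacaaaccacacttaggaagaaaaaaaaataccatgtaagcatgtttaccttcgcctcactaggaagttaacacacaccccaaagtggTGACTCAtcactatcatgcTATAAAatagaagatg

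Each of the 3 windows held 1 AP-1 motif and, downstream of it, 1 TATA box motif. The AP-1 motif began 46 bases before the start in Mmp3, 63 bases before it in Mmp10 and 35 bases before it in Mmp13. Of the 32851 promoters of this length, 4.46% held the AP-1 motif, 12.4% the TATA box motif and 0.721% both. The windows of Mmp11, Mmp14, Timp1, Timp2 and Timp3 held neither motif. The 3 neighbours had a GC content of 37.2% to 40.4% in this window, and the other 5 genes of 54.4% to 68.0%. These matches describe letters and are no evidence of binding.

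Over all cells, the 3 inhibitors were detected widely and the metalloproteinases in 2 ways, broadly or in few cells. Timp1, an inhibitor that is also known as a growth factor, had levels of 5.83 and 5.48 in replicate 1 and replicate 2, and 96.2% and 94.4% of cells had a UMI. Timp3, which is bound in the matrix, had levels of 4.13 and 3.1, and Timp2 of 2.25 and 1.63. The membrane enzyme Mmp14 had levels of 1.33 and 1.06, with a UMI in 66.4% and 55.0% of cells. Mmp2, a gelatinase, had levels of 1.08 and 0.885, with a UMI in 56.5% and 50.7% of cells. Mmp11, also called stromelysin-3, had levels of 0.491 and 0.560, with a UMI in 33.9% and 31.7% of cells. The remaining 3 enzymes, those of the chromosome 9 neighbours, were detected in few cells. Mmp3, also called stromelysin-1, had levels of 0.321 and 0.258, with a UMI in 5.02% and 3.68% of cells. Mmp13, a collagenase, had levels of 0.452 and 0.254, with a UMI in 6.01% and 4.47% of cells. Mmp10, also called stromelysin-2, had 0 UMIs in replicate 1, where a count of 0 allows a level of up to 0.000554 (3 counts in the library), and 5 UMIs in 4 cells of replicate 2. These limits and the intervals below cover counting error only.

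None of the 8 members other than Mmp10 was 2-fold apart between the libraries, as against 0.252% of the 7131 genes with a mean of at least 0.1. Of these 8, Mmp13 differed the most, with a log2 difference of -0.64 (replicate 2 minus replicate 1), and of -0.48 when each state was given the same weight. States took different shares of the 2 libraries, 7.72% and 3.81% of cells for cluster 10 and 4.12% and 8.76% for cluster 7, so the levels below are given state by state.

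The levels differed widely between states, and the order of the states was much the same in both libraries. For the 8 genes other than Mmp10, the correlation of state means between the libraries ran from 0.941 (Mmp13) to 0.997 (Mmp14) over 12 states, given as a description, since the states share libraries. The lowest level of Mmp2, Mmp14 and the 3 inhibitors was that of the pluripotent-like cells in both libraries. The highest level was not in the same state for every gene, and 4 states held the peaks. Cluster 10 was highest for Mmp2, Mmp3, Mmp13 and Timp2. Cluster 8 was highest for Mmp11 and Mmp14, cluster 11 for Timp1, and cluster 2 for Timp3.

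**Figure D1:**
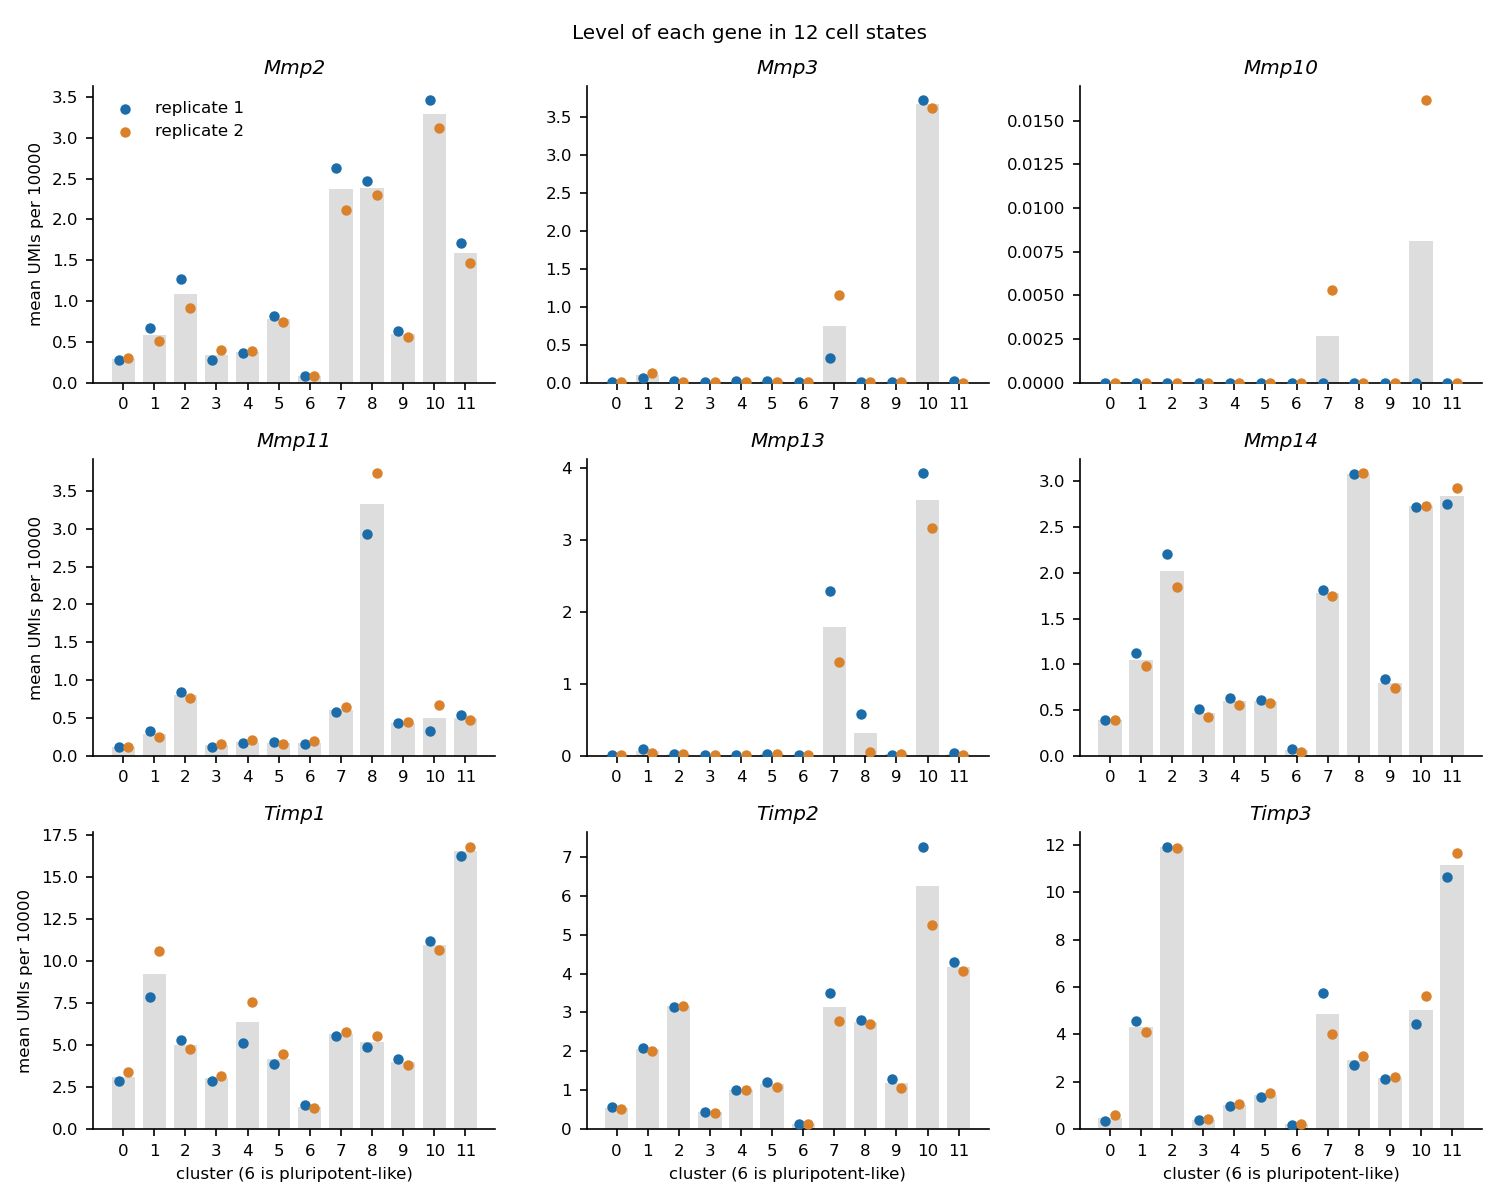
Mean level of each of the 9 genes (UMIs per 10000, a separate linear axis for each gene) in 12 states by cluster number, with points for the 2 libraries and grey bars for their mean. Mmp3 and Mmp13 were high in cluster 10 and then in cluster 7, Mmp11 in cluster 8, and Timp3 in clusters 2 and 11, while the panel of Mmp10 rests on 5 UMIs of replicate 2.

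Mmp2 was highest in cluster 10, at 3.46 and 3.12 in replicate 1 and replicate 2. Cluster 8 followed with 2.47 and 2.30 and cluster 7 with 2.63 and 2.11, and these neighbours were not ordered alike in the 2 libraries. Cluster 11 (1.71 and 1.46) came next. Mmp14 had a flatter top: cluster 8 had 3.08 and 3.09, cluster 11 had 2.75 and 2.93, and cluster 10 had 2.72 and 2.73. Its level in the pluripotent-like cells was 0.0729 and 0.0460, 51.8-fold below cluster 8 on the mean of the libraries. Timp2 was highest in cluster 10, at 7.27 and 5.24, followed by cluster 11 at 4.30 and 4.05. Clusters 2, 7 and 8 came next with means of 3.16, 3.15 and 2.75, and neighbours among them changed places between the libraries.

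Mmp14, Timp2 and Mmp2, the proteins of which meet in the activation of Mmp2, ran in parallel over the 12 states. On log2 levels the correlation of Mmp14 and Timp2 was 0.955 and 0.965 in the 2 libraries, that of Mmp2 and Mmp14 was 0.936 and 0.934, and that of Mmp2 and Timp2 was 0.953 and 0.904. Timp2 and Timp3 had correlations of 0.912 and 0.943. The inhibitors had lower correlations with Mmp3 and Mmp13, of 0.308 to 0.646. All points of these correlations share the libraries and the depth of the cells of a state, and many other genes also ran in parallel. The genes most like Mmp14 were Dap (lower correlation of the 2 libraries 0.969), Arl2 (0.968) and Aebp1 (0.965), and those most like Timp2 were Dap (0.987), Jak1 (0.987) and Rhbdf1 (0.972). Those most like Mmp2 were Tmem86a (0.967), Igf2r (0.964) and Trib2 (0.960).

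Mmp11 peaked in another state. Its level in cluster 8 was 2.92 and 3.73, 4.15-fold above the next state, cluster 2 (0.843 and 0.761). In cluster 8, a Mmp11 UMI was found in 65.6% (exact 95% interval 57.8% to 72.9%, replicate 1) and 61.3% (55.4% to 67.0%, replicate 2) of the cells, at median depths of 9738 and 9652 UMIs. The pluripotent-like cells, at 28768 and 26097 UMIs, had one in 34.9% and 37.1%. With every cell thinned to 3000 UMIs the shares were 40.5% and 41.5% in cluster 8 and 6.16% and 5.88% in the pluripotent-like cells. The lowest level was in the mitotic cluster 0, at 0.111 and 0.118. The genes most like Mmp11 over the states were Hsd17b11 (0.877), Bhlhe41 (0.871) and Atrnl1 (0.868), lower values than for the members above.

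Timp1 was detected in every state, and cluster 11 was highest with 16.3 and 16.8. Cluster 10 had 11.2 and 10.7, and the mitotic cluster 1 had 7.88 and 10.6. The pluripotent-like cells still had 1.41 and 1.26, with a Timp1 UMI in 36.3% and 29.9% of cells at 3000 UMIs, so the range over states, 12.4-fold, was the narrowest of the 8 genes. Timp3 was highest in cluster 2, at 11.9 in both libraries, and in cluster 11, at 10.7 and 11.7. The next states, the cells of cluster 10 (4.43 and 5.64) and cluster 7 (5.75 and 4.02), were not ordered alike in the libraries, and their means lay at least 2.22-fold below that of cluster 11. The genes most like Timp1 were Msn, Spcs1 and Rab2a (0.960, 0.956 and 0.952), and those most like Timp3 were Fbln2, Lrp6 and Mical2 (0.977, 0.972 and 0.971).

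Mmp3 and Mmp13 were concentrated in few states and, within those, in few cells. Mmp3 had levels of 3.73 and 3.63 in cluster 10. Cluster 7 followed with 0.329 and 1.16 and the mitotic cluster 1 with 0.0625 and 0.128. All other states were between 0 and 0.0244, and the pluripotent-like cells had 0.0122 and 0.0104. Mmp13 had levels of 3.93 and 3.17 in cluster 10 and of 2.29 and 1.31 in cluster 7. In cluster 8 it had 0.588 in replicate 1 and 0.0496 in replicate 2, and 3 cells held 81.0% of the 84 UMIs in replicate 1. Cluster 1 had 0.0895 and 0.0409 and all other states were at or below 0.0343. Cluster 10 made up 7.72% and 3.81% of cells and held 86.4% and 51.7% of the Mmp3 UMIs and 69.6% and 47.1% of the Mmp13 UMIs.

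Most cells of cluster 10 had no UMI of either gene. Mmp3 was detected in 31.7% (95% exact interval 25.8% to 38.0%) and 28.2% (21.1% to 36.1%) of them, and Mmp13 in 32.1% (26.2% to 38.4%) and 29.5% (22.3% to 37.5%), at median depths of 13410 and 11409 UMIs. Of the pluripotent-like cells, about 2 times deeper, 3.42% and 2.30% had a Mmp3 UMI and 4.79% and 1.28% a Mmp13 UMI. Whether these UMIs are background was not tested. In those cells of cluster 10 that had them, the counts could be high, with up to 172 and 134 UMIs of Mmp3 and up to 133 and 45 UMIs of Mmp13 in a cell. The tenth of these cells with the most UMIs held 80.9% and 85.3% of the Mmp3 UMIs of that state. For Mmp13 these shares were 80.1% and 75.8%, whereas for Mmp2 they were 26.5% and 31.4% and for Timp2 29.7% and 28.7%. Over all cells, the top 1% held 77.4% and 83.9% of the UMIs of Mmp3 and 72.9% and 73.9% of those of Mmp13, as against 8.58% to 26.6% for the 6 broadly detected genes. The state means of Mmp3 and Mmp13 therefore rest on few cells. In cluster 7 of replicate 1, 3 cells held 51.5% of the Mmp13 UMIs and 58.5% of the Mmp3 UMIs. The genes most like Mmp3 over the states were Rasal2 (0.944), Comp (0.943) and Penk (0.932), and those most like Mmp13 were Smoc2 (0.921), Fndc3a (0.892) and Ptpn1 (0.891). Comp and Penk are leading genes of cluster 10 and Smoc2 of cluster 7.

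Cells with at least 10 UMIs were picked out for Mmp3 and Mmp13 after the values had been seen. There were 28 such cells for Mmp3 in each library, holding 74.5% and 75.8% of its UMIs, and 27 and 24 of them were in clusters 7 and 10. For Mmp13 there were 47 and 32 cells, of which 43 and 32 were in these clusters. Of the cells with at least 10 Mmp3 UMIs, 60.7% and 64.3% also had a Mmp13 UMI, compared with 4.61% and 3.37% of cells without Mmp3. These 2 sets differ in state: 96.4% and 85.7% of the former were in clusters 7 and 10, and 9.31% and 10.6% of the latter. Yet only 8 cells in each library had at least 10 UMIs of both, and 11 and 10 of the 28 had none of Mmp13. The 4 cells with Mmp10 were in clusters 7 and 10 as well, with 0 to 4 UMIs of Mmp3 and none of Mmp13.

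**Figure D2:**
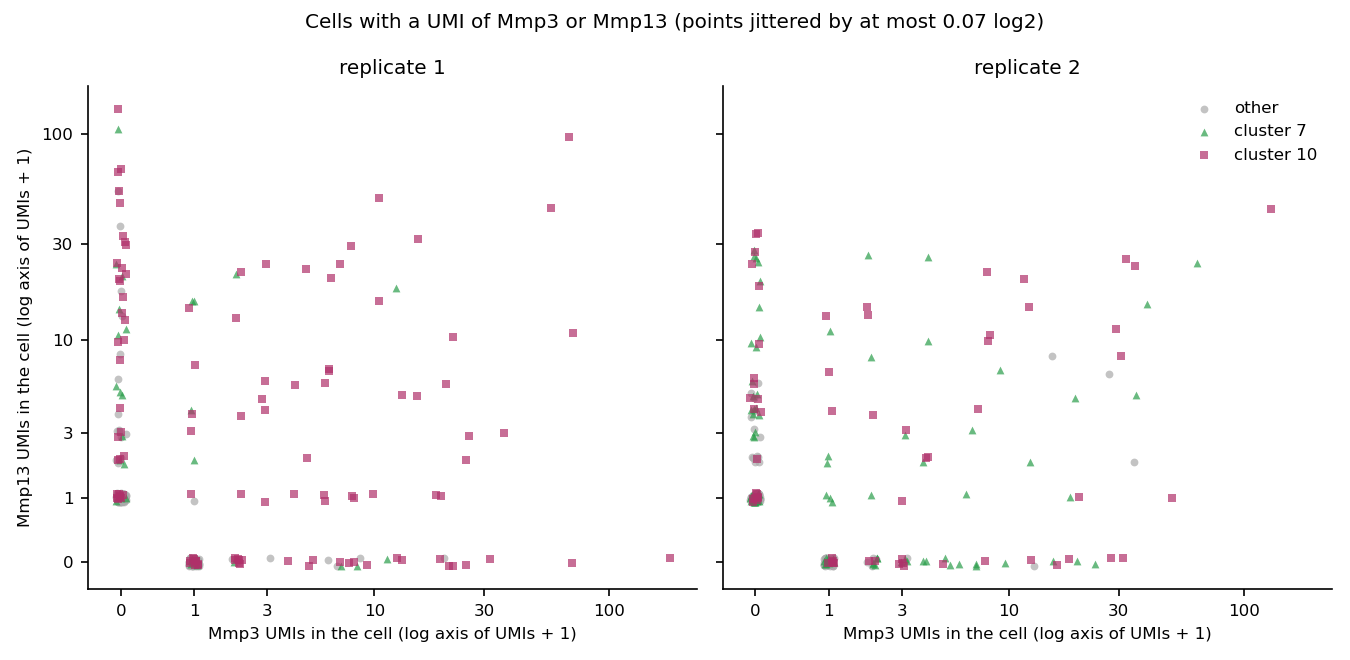
UMIs of Mmp3 (x) and Mmp13 (y) in single cells with a UMI of either gene, on log axes of UMIs plus 1, for replicate 1 (292 cells) and replicate 2 (271 cells). Squares are cells of cluster 10, triangles cluster 7 and circles all other cells. Cells high for one gene lie along the axes, without the other gene, as well as in the middle, and 8 cells in each library had at least 10 UMIs of both.

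Pairs of members were counted as detected together after each cell had been thinned to 3000 UMIs, and the count was set against that of independent detection within clusters, so that the clusters alone do not raise it. Mmp3 and Mmp13 were found together in 28 and 31 cells. Independent detection over the whole library gives 2.66 and 1.72 cells and within clusters 14.4 and 10.8, so the count was 1.94 and 2.87 times that within clusters. In cluster 10 at full depth, 44 and 23 cells had both, against 24.4 and 12.4 by independence. Mmp11 and Mmp13 were together in 1.72 and 1.36 times the cells given by independence within clusters, on 17 and 16 cells, and at full depth in 1.03 and 1.23 times. Mmp13 and Mmp14 were together in 1.40 and 1.39 times, Mmp2 and Mmp13 in 1.27 and 1.30 times and Mmp2 and Mmp14 in 1.09 and 1.21 times. Mmp14 and Timp2, which ran in parallel over the states, were close to independence within them (1.07 and 1.07). Pairs with Timp1 or Timp3 lay between 0.835 and 1.10, the lowest value being that of Mmp3 and Timp3 in replicate 2. These ratios are descriptions with no test, since cells of 1 library are not replicates. Part of a ratio above 1 can come from differences within a cluster, and this part was not tested.

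**Figure D3:**
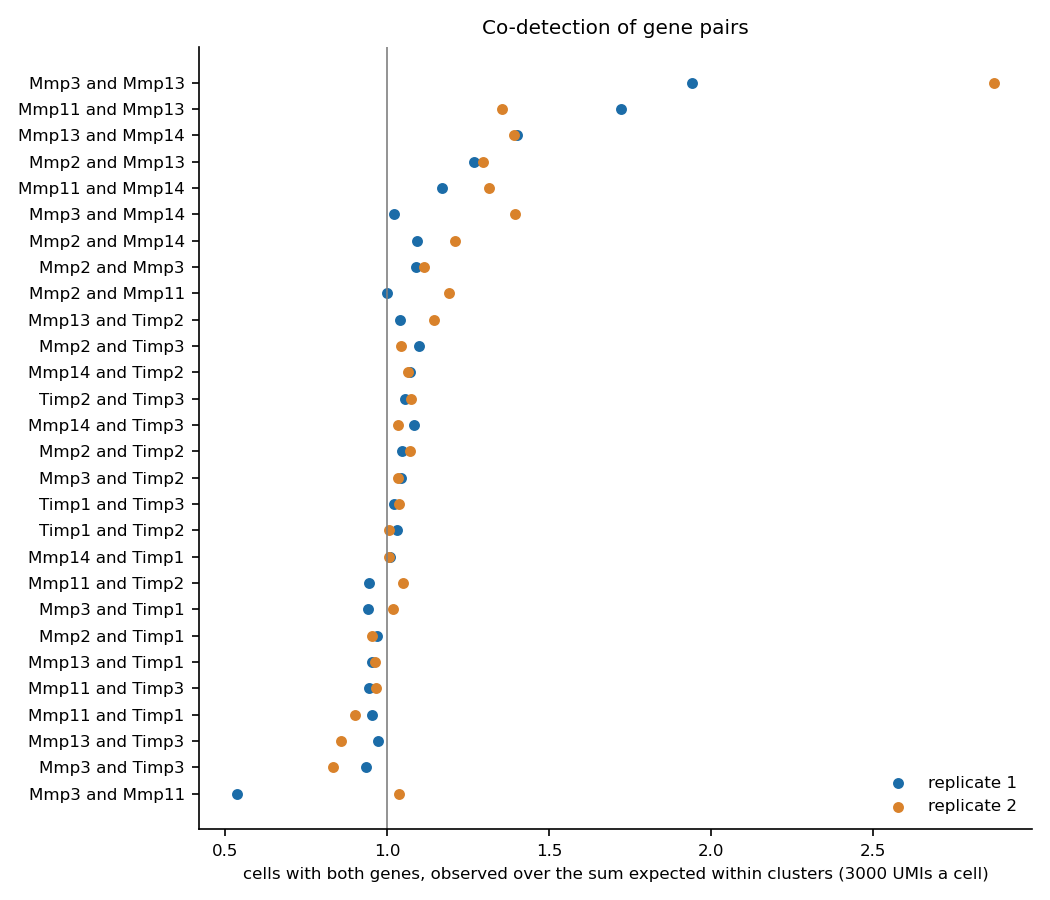
Ratio of cells with both genes to the number that independent detection within clusters gives, at 3000 UMIs a cell, for the 28 pairs without Mmp10 (points for the 2 libraries, grey line at 1). Mmp3 and Mmp13 have the highest ratios (1.94 and 2.87), pairs with Timp1 or Timp3 lie between 0.835 and 1.10, and the ratio of 0.538 for Mmp3 and Mmp11 in replicate 1 rests on 4 cells.

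The number of member genes per cell followed the states. At 3000 UMIs, 49.6% and 43.0% of cells of cluster 10 and 46.6% and 39.7% of cells of cluster 8 had UMIs of at least 2 of the 6 Mmp genes, compared with 0% and 0.767% of the pluripotent-like cells. All 3 inhibitors were found in 51.8% and 43.1% of cells of cluster 11 and in 35.8% and 31.5% of cells of cluster 10. Cells with an Mmp and no Timp UMI at this depth were 2.08% and 0% of cluster 10 and 5.52% and 8.71% of cluster 8.

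The balance of enzyme to inhibitor RNA was taken as the UMIs of the 6 Mmp genes divided by those of the 3 Timp genes. It compares counts of molecules of different genes, whose capture may differ, so its level is less informative than its order over states. Cluster 8 had the highest ratios, 0.775 and 0.695. Cluster 10 had 0.466 and 0.475 and cluster 7 had 0.429 and 0.449. In cluster 10, Mmp3 and Mmp13 gave 1007 and 1195 of the 4261 Mmp UMIs in replicate 1. In replicate 2 they gave 552 and 447 of 2137. As most UMIs of these 2 genes sat in few cells, the ratio of cluster 10 does not describe its typical cell. Cluster 10 had 9143 and 4495 Timp UMIs in replicate 1 and replicate 2. The ratio without Mmp3 and Mmp13 was not computed, so a high ratio apart from these 2 genes is not shown for cluster 10. The other 9 states ranged from 0.105 to 0.252. The pluripotent-like cells, where both groups were low, had 0.192 and 0.205, near the value of all cells (0.248 and 0.225). Cluster 11, with high levels of Mmp14 and the highest of Timp1, had only 0.151 and 0.136. When means per 10000 were used instead of summed UMIs, the ratio of cluster 10 was 0.619.

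**Figure D4:**
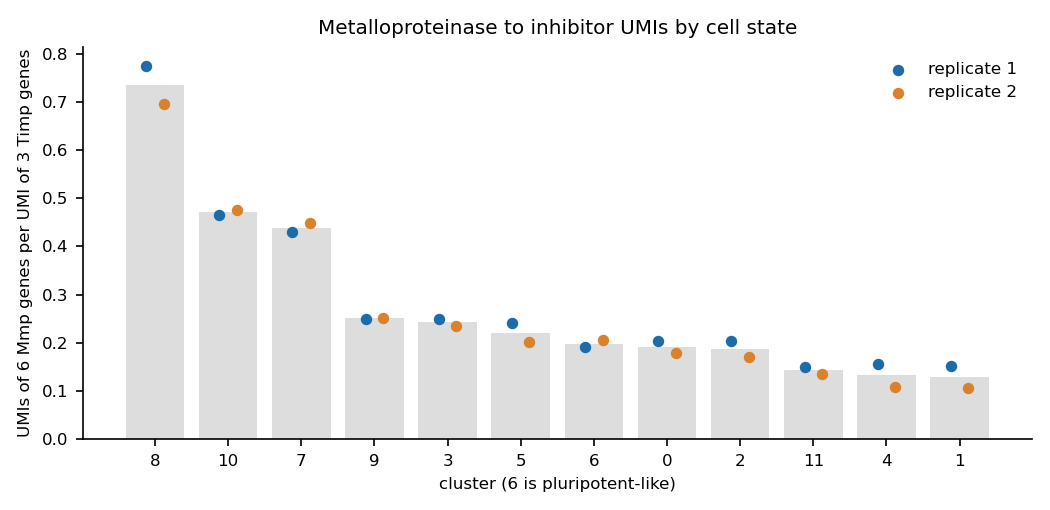
UMIs of the 6 Mmp genes per UMI of the 3 Timp genes in the 12 states, ordered by the mean of the 2 libraries (grey bars, points for the libraries). Clusters 8, 10 and 7 stand at 0.429 to 0.775 and the other 9 states at 0.105 to 0.252. A large part of the Mmp UMIs of cluster 10 are of Mmp3 and Mmp13 and sit in few cells. The ratio without these 2 genes was not computed.

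The first comparison asked how the pluripotent-like cells differed from all other cells of the same libraries. All 8 members that could be tested were lower in the pluripotent-like cells, and Mmp10 did not reach the minimum mean of 0.1. Mmp2, Mmp3, Mmp13 and Mmp14 reached it in the other cells and not in the pluripotent-like cells. The count, the median, and the p-values of these genes are therefore descriptions. The background was high: 46.2% of the 7131 genes tested, and 42% of those not used in the clustering, were lower, so the sizes say more than the count. The median log2 difference was -2.36 for the 8 members and -0.16 for all genes. Timp3 had levels of 0.181 and 0.230 in the pluripotent-like cells against 4.32 and 3.42 in the others. Its log2 difference was -3.69 ± 0.13 (SE from limma, with the spread mostly borrowed from other genes). Timp2 (0.140 and 0.121 against 2.36 and 1.80) had -3.23 ± 0.10 and Mmp14 (0.0729 and 0.0460 against 1.40 and 1.17) had -3.12 ± 0.09. Mmp2 (0.0844 and 0.0856 against 1.13 and 0.974) had -2.64 ± 0.10. That these genes were called does not set the members apart, since 5541 of the 7131 genes were called in this comparison.

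The log2 differences of the other 4 genes were smaller at this pseudocount. Timp1, from 6.04 and 5.95 to 1.41 and 1.26, had a log2 difference of -2.09 ± 0.09, Mmp13 of -2.07 ± 0.11, Mmp3 of -1.88 ± 0.09 and Mmp11 of -1.25 ± 0.09. The values are on log2(mean + 0.1), where the change of low genes comes out too small, and the levels of Mmp2, Mmp3, Mmp13 and Mmp14 in the pluripotent-like cells were below this pseudocount. With a pseudocount of 0.01 the differences were -4.19 for Mmp13, -3.91 for Mmp3, -3.48 for Mmp2 and -4.24 for Mmp14, so the order of the genes depends on the pseudocount. The 4 other genes had -4.17 (Timp3), -3.88 (Timp2), -2.16 (Timp1) and -1.61 (Mmp11), and Mmp11 and Timp1 thus had the smallest differences. In limma the adjusted p of Mmp11, Timp1, Timp2 and Timp3 ran from 1.91e-08 to 1.83e-06. That of Mmp2, Mmp3, Mmp13 and Mmp14 was 1.59e-08 to 3.97e-07 and is a description, given the minimum mean. Each of the 8 genes kept its call under every alternative with a test. The other clusterings held the same 537 pluripotent-like cells, so they repeat the main fit. Only 4 profiles entered the test, and limma borrowed the spread from other genes (8.78 degrees of freedom in all). The depth was higher in the pluripotent-like cells. With all cells thinned to 3000 UMIs the 8 genes were lower too, but thinning keeps the expected level of each cell. That fit adds counting noise and could not show an effect of depth, which was not tested. Leaving out the clusters of under 30 cells did not change the calls. The summed level of the 11 fibroblast markers was 2.21 and 1.65 in the pluripotent-like cells, 113 and 82.5 in cluster 10 and 98.3 and 93.7 in cluster 11, and its part in the results was not tested.

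The second comparison asked how the cells of cluster 10 differed from the other non-pluripotent cells, which included cluster 11 with its raised fibroblast markers. Mmp3 (3.73 and 3.63 against 0.0370 and 0.138) had a log2 difference of 4.38 ± 0.13 and Mmp13 (3.93 and 3.17 against 0.169 and 0.154) of 3.80 ± 0.11. Mmp2 followed with 1.76 ± 0.11, Timp2 with 1.74 ± 0.11, Mmp14 with 1.13 ± 0.11 and Timp1 with 0.94 ± 0.11. In limma the adjusted p of Mmp13, Mmp2, Timp2, Mmp14 and Timp1 was at most 3.13e-09. Mmp3 reached the minimum mean only through cluster 10, so its difference and p are a description. The fit had 41.0 degrees of freedom in all, most of them borrowed. The SE is therefore not a gene's own spread between the libraries. The background was 25.6% of the 7131 genes higher and 22% of those not used in the clustering. With no filter on low values none of the 6 genes above passed in limma, with adjusted p of 0.0751 to 0.0757. All 6 had an unadjusted p under 0.05. In that fit 0 of 17408 genes passed and 5168 had an unadjusted p under 0.05.

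Timp3 and Mmp11 did not follow. Timp3 passed the test with 0.39 ± 0.13 and an adjusted p of 0.00868 in limma, but its levels were 4.43 and 5.64 against 4.31 and 3.32. The difference was 0.04 in replicate 1 alone and 0.75 in replicate 2 alone, further apart than the SE conveys. It was not called in 8 of the 11 alternatives with a test. Mmp11 had 0.332 and 0.678 against 0.523 and 0.597, with a log2 difference of -0.19 ± 0.12 and an adjusted p of 0.22 in limma, and the 2 libraries pointed in opposite directions. Mmp3 reached the minimum mean only through cluster 10, so that it had to differ, and its value is a description. Of the 7 members that reached it without cluster 10, 6 were higher, Timp3 among them. The median log2 difference of these 7 was 1.13, that of all genes 0.02. Without cluster 11 among the other cells, 7 members, Mmp3 among them, were called higher, beside 1909 of the 7131 genes.

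**Figure D5:**
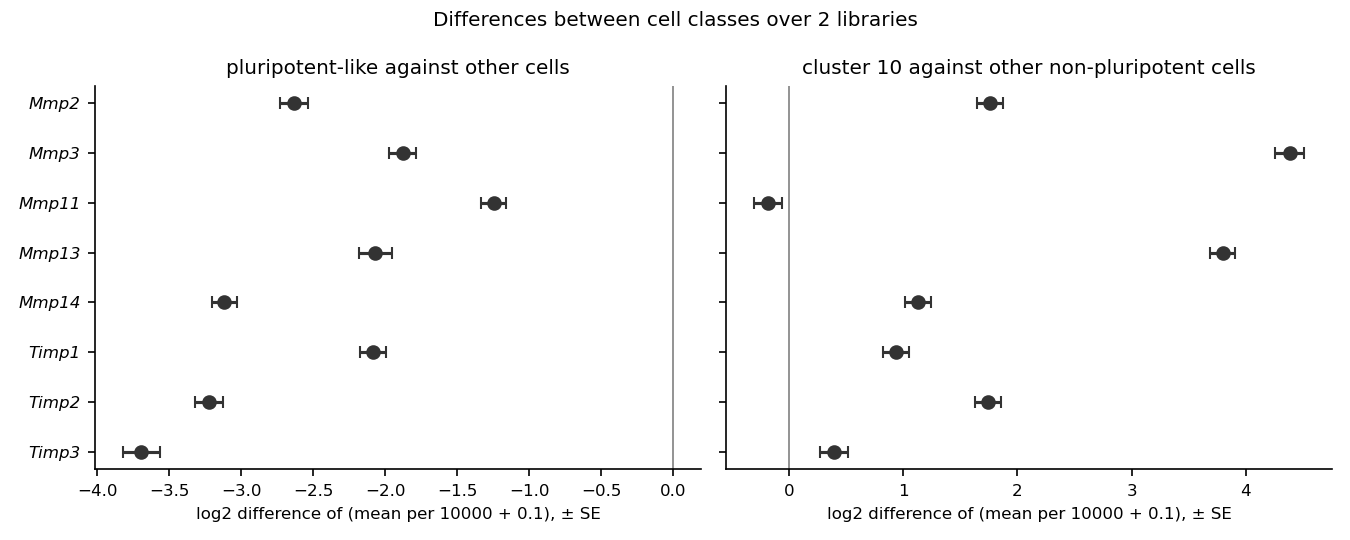
Log2 difference of mean level (mean per 10000 plus 0.1) for 8 genes over 2 libraries, with SE from limma. The spread behind the SE is mostly borrowed from other genes. The left panel is pluripotent-like against all other cells, the right panel cluster 10 against the other non-pluripotent cells. All 8 lie below 0 on the left. On the right Mmp3 (4.38) and Mmp13 (3.80) lie far above the rest, Timp3 is at 0.39, and Mmp11 is at -0.19. Mmp3 reached the minimum mean only through cluster 10.

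Other genes of the pathway were read from 4 lists. Of the other metalloproteinases and inhibitors, 12 of 16 were in the table and only Mmp23 reached the minimum mean. Mmp23 was lower in the pluripotent-like cells (log2 difference -1.47) and higher in cluster 10 (0.97). Mmp9 was close to undetected, at 0.0122 and 0.109 in cluster 10. Of the genes for activation and induction of the enzymes, 5 of 6 tested were lower in the pluripotent-like cells and 5 of 6 higher in cluster 10. The shares of all genes not used in the clustering were 42% lower and 22% higher, and these hold for the next list too. Bsg, which codes for the inducer EMMPRIN, was the one not called in the first comparison (-0.18, adjusted p of 0.117 in limma). Its levels were 4.25 and 4.46 in the pluripotent-like cells. Cd44, a surface receptor that can anchor these enzymes, fell the most of this list (-2.90), and Furin, a convertase that activates the proenzyme of Mmp14, had -1.50.

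Of the other matrix proteases tested, 10 of 11 were lower in the pluripotent-like cells and 10 of 11 higher in cluster 10. Adam19 was higher in both, by 0.24 and 0.94 (in the first comparison 31.5% of all genes tested and 33.3% of those not used in the clustering were higher), and Adam15 was the one not called in the second comparison (0.10). The medians of this list were -1.36 and 0.94. None of the genes of these 3 lists had been used in the clustering. Of the substrates, 15 of 16 were lower in the first comparison and 15 of 16 higher in the second, beside 46.2% and 25.6% of all genes tested. By size, Col3a1 (-3.66), Col1a2 (-3.65), Col1a1 (-3.21) and Igfbp3 (-3.02) led the falls in the pluripotent-like cells. Spp1 (5.62), Col10a1 (4.01), Eln (3.51) and Col3a1 (3.08) led the rises in cluster 10, where Dcn, which codes for the small proteoglycan decorin, was lower (-0.52, with 23.3% of all genes tested and 21.8% of those not clustered on also lower). As 16 of the 18 substrate genes had been used in the clustering, their values describe the clusters and are no separate result.

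Clusters with fewer than 30 cells in a library gave further values for the inhibitors, with no test. Cluster 16 (4 and 9 cells) was macrophage-like, with 6 of 6 markers raised. Its cells had Timp2 levels of 8.51 and 14, above any of the 12 states, and a Timp2 UMI was found in all 13 cells. Timp1, in contrast, had 0 and 2 UMIs there and Timp3 0 and 1. Cluster 14 (1 and 42 cells), led by Trf and Saa3, had a Timp3 level of 24.8 in replicate 2, about 2 times that of cluster 2, with a UMI in each of the 42 cells. Mmp3 and Mmp13 had 0 UMIs there. The epithelial-like cluster 12 (69 and 4 cells) had a Timp1 level of 1.95 in replicate 1 and a Timp3 level of 0.339.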

How the data were processed

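The authors processed the reads of 2 libraries with Cell Ranger (version 2.1.1, per the labels, build mm10) and Seurat. The sources used here do not say how doublets were treated, and no doublet caller was run. The authors deposited natural log values, ln(1 + UMIs of the gene per 10000 UMIs of the cell). Turned back, 100% of the values were whole UMIs within 0.01, for 54145377 and 64654306 UMIs in all and 4753 to 60990 in a cell. The cells had 1508 to 5987 genes and up to 8.99% mitochondrial RNA. Cells were assigned to libraries by the prefix of their column name, which the labels list as the barcode suffix, and this left 0 columns over.

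Cells were clustered on 2000 variable genes (30 components, 15 neighbours, Leiden resolution 1, scanpy version 1.11.5, leidenalg version 0.10.2) without 655 genes: the members, 3 pathway lists, X- and Y-linked genes and the factors. Clusters were named from 83 markers of 11 classes: at least 3 and 50% of a class's markers 2-fold up and no other class leading the top 10 genes. That at least 1 marker be in the top 10 was required after the clusters had been seen. Cluster 10 met the rule for fibroblasts and is called by its number for its leading genes; in other clusterings its counterpart is the cluster that met that rule. The members, lists and tests were chosen with earlier results of these data known. Named were all members, for each the 3 genes with the highest lower correlation over states, and of the pathway lists the counts and the largest 4 rises and 4 falls past the threshold among all listed genes; other pathway genes named were chosen after their values were seen.

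Means of a class per library were tested as log2(mean + 0.1) with limma (version 3.58.1, R version 4.3.3), terms for class and library (the library pairs the classes, as both come from it), at a minimum mean of 0.1, and Benjamini-Hochberg adjustment at 0.05 over 7131 genes. On simulated data with 200 genes changed 4-fold, 100% were recovered in each comparison. Of the simulated calls, 8.68% (pluripotent-like) and 1.96% (cluster 10) were unchanged genes. In the data far more genes were called, 5541 (pluripotent-like) and 3492 (cluster 10) of 7131. The simulated rates therefore describe that setting only and are not error rates of the calls in the data. Whether they hold for genes with most UMIs in few cells, such as Mmp3 and Mmp13, was not tested. Chromium 3' reads keep their strand, which bears on Timp1, Timp3 and Mmp11, since genes on the opposite strand overlap them. Cep295nl, which is not in the table, overlaps Timp2 on the same strand, which strand does not resolve. Alternatives were the pseudocount, no filter, no library term, other clusterings, thinning to 3000 or 4500 UMIs, and leaving out a library.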

Additional observations from a re-analysis of the deposited data

How the results depend on the processing

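The 8 members lower in the pluripotent-like cells were called under every alternative with a test. These were pseudocounts of 1 and 0.01, no filter, no library term, the other clusterings, thinning, and without small clusters. The last was chosen after seeing the data. The other clusterings held the same pluripotent-like cells and gave the same values, so they could not change these calls. Thinning keeps the expected level of each cell, so it adds counting noise and does not test depth. In the comparison of cluster 10 the count of 7 became 0 with no filter on low values; at an unadjusted p under 0.05 in that limma fit there were 6 members. Over all genes, the calls of this comparison were 3492, and 2121 without the library term (no replicate block), 1554 with thinned cells and 0 with no filter. Timp3 lost its call, with adjusted p in limma of 0.126 and 0.155 at pseudocounts of 1 and 0.01, 0.468 with no filter, 0.141 without the replicate block, 0.0590 with 4000 variable genes, 0.203 with thinned cells and 0.0514 without small clusters. At resolution 2 it turned to -0.25, and Mmp11 turned to 0.0742. Mmp11 was 0.16 without replicate 1 and -0.53 without replicate 2. The replicate block changed no other call of a member. The Mmp to Timp ratio of cluster 10 was 0.466 to 0.475 when a library was left out, 0.456 at resolution 0.5 and 0.590 at resolution 2, and 0.619 from means per 10000. For the other non-pluripotent cells it was 0.192 at resolution 0.5 and 0.258 from means. With each state given the same weight, the log2 difference between libraries turned to 0.18 for Mmp3, 0.12 for Timp1 and 0.0323 for Timp3. The causes of these changes were not tested. The 537 pluripotent-like cells were found in each clustering, and the cells that met the fibroblast marker rule were 389 in the main clustering (cluster 10) and 316 to 871 in the others. Depth limits Mmp10, with 5 UMIs, and shares of cells with a UMI.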
